A study of Homo sapiens with 10 samples.

Results

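ICAM1, VCAM1, CD44, SDC4, MMP9, CD83, TNFAIP2 and SOD2 are 8 genes known as targets of NF-κB that act in cell adhesion, in matrix breakdown, in immune activation and in the handling of oxidative stress. They were taken by name from the 19962 protein-coding genes tested, and H3K27ac peaks that overlapped each gene body or the 50 kb on either side of it were collected. Of 76044 regions obtained by merging overlapping peaks over all lists, 65 lay in the windows of these 8 genes. TNFAIP2 had 16 of them, ICAM1 and SOD2 had 13 each, SDC4 had 8, MMP9 had 7, CD44 had 5, VCAM1 had 2 and CD83 had 1.

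The lists came from SKBR3 and MDA-MB-453, established breast cancer cell lines of the HER2 subtype. In each line, 2 libraries were untreated and 2 came from cells given TWEAK, a cytokine of the TNF family that binds the receptor Fn14, at 10 ng/ml for 48 h with fresh ligand at 24 h. Cells were starved for 8 h in reduced-serum medium. The study states at least 2 biological replicates for its cell line ChIP-seq. Each line is 1 culture model, so differences between the lines compare these lines only. H3K27ac, acetylation of lysine 27 of histone H3, marks active promoters and enhancers. Fn14 signals through NF-κB, a family of transcription factors held in the cytoplasm until a signal frees them, and ICAM1, VCAM1 and SOD2 are textbook genes it activates in response to inflammatory cytokines.

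SKBR3 lists held between 43684 and 51687 peaks over 92.1 to 105.7 Mb, and MDA-MB-453 lists between 36148 and 37813 peaks over 70.5 to 72.1 Mb. The list with the most peaks was that of SKBR3 TWEAK replicate 2, and 6 of the 20 regions around the 8 genes that occurred in a single list were its own. The lists carry no read totals, which leaves library depth unknown. Absence from a list means only that no peak passed the caller's threshold. Of 7 luminal epithelial markers, 5 (ERBB2, GRB7, KRT8, KRT18 and KRT19) had a peak at the gene start in all 8 lists and the other 2, EPCAM and GATA3, in some. Of 7 markers of leukocytes, endothelium and fibroblasts, 6 had none in any list and COL1A1 had one in all 8. Below, the strength of a peak is the percentile of its score within its own list (100 for the strongest peak), and distances are in kb from the GENCODE gene start along the direction of the gene.

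Sequences that match the NF-κB consensus site, or a looser form of it, are shown first. They come from some promoters of these genes and from some of the regions that differed with TWEAK. Promoters are those of RefSeq (GRCh38.p14), from 250 bases before to 50 after the gene start, on the strand of the gene. Capitals mark matches to the consensus NF-κB site or to its looser form GGAANNNCC on either strand, merged where they overlap. Only promoters with a match are shown, ICAM1 and SDC4 as genes whose starts carried peaks, and VCAM1 and CD83 as genes whose starts carried none. The promoters of CD44 and SOD2 and the other CD83 promoter held no match, and that of TNFAIP2 held only the looser form.
ICAM1, chr19:10270870-10271169: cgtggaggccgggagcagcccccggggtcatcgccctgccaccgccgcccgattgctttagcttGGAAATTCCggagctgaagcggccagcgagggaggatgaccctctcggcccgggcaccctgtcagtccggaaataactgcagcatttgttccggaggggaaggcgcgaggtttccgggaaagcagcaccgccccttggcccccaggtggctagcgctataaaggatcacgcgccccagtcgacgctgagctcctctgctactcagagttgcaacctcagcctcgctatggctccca
SDC4, chr20:45348375-45348674, minus strand: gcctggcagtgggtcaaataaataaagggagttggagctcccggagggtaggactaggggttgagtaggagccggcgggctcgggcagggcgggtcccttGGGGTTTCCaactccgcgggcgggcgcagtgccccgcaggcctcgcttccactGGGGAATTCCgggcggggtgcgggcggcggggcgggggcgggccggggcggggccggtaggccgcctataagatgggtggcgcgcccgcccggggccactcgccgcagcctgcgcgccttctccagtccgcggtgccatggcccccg
VCAM1, chr1:100719492-100719791: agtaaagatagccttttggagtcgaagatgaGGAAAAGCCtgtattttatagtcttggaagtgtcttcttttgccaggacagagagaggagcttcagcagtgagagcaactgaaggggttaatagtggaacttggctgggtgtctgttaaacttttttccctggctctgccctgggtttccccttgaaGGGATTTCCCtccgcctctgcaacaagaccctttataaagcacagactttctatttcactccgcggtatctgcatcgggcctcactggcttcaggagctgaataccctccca
CD83, chr6:14117522-14117821: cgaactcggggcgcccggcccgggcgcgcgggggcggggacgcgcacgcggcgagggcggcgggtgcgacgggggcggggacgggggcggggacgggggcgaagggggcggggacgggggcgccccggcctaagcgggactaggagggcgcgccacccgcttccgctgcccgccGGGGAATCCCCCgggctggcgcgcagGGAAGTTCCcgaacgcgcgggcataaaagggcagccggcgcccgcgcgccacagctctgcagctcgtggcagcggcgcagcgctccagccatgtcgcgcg

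The ICAM1 match to GGAANNNCC lay 186 to 178 bases before the gene start, the consensus match of SDC4 97 to 88 bases before it, and that of VCAM1 62 to 53 bases before it. CD83 held 3 overlapping consensus matches between 76 and 65 bases before the start. Among 34961 RefSeq promoters, 5.91% held the consensus site and 20.1% held GGAANNNCC, which overlaps it in part. The next sequences are matches in hg38 inside peak regions, with 25 bases on each side and the consensus site in capitals, written on the strand of the match. They come from merged regions that appeared or rose in rank in the TWEAK lists of one of the lines, and a site can lie outside the peaks of a list. The SDC4 site lay outside every MDA-MB-453 peak and inside only the peak of SKBR3 untreated replicate 2. The TNFAIP2 site lay outside the peaks of SKBR3 TWEAK replicate 2. Peaks of both untreated SKBR3 lists already covered the SOD2 site and the ICAM1 site 10.9 kb upstream. Other such regions, at TNFAIP2 22.8, 40.0 and 64.4 kb downstream, held 0 consensus sites, and the region lost there 16.4 kb upstream held 1.
ICAM1, 5.6 kb upstream, chr19:10265459-10265518: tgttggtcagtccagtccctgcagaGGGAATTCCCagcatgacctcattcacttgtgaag
ICAM1, 10.9 kb upstream, chr19:10260142-10260201: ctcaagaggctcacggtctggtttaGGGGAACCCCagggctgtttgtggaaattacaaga
MMP9, 0.6 kb upstream, chr20:46008279-46008338, minus strand: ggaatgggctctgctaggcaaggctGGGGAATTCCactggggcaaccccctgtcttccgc
TNFAIP2, 8.91 kb upstream, chr14:103112534-103112593: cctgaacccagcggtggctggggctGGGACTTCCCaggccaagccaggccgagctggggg
SOD2, 46.2 kb downstream, chr6:159716291-159716350: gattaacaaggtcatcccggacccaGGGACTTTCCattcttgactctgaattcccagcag
SDC4, 28.0 kb downstream, chr20:45320383-45320442: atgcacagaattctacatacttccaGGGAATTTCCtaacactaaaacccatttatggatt

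Matches of this kind were not particular to these regions. In the 1000 bases around the midpoint, 11 of the 65 regions (16.9%) held the consensus site against 13.8% of all 76044. GGAANNNCC was held by 29 (44.6%) against 41.0%, and the AP-1 site TGACTCA by 12 (18.5%) against 23.01%. Of the 4 regions gained at these genes in SKBR3, 1 held the consensus in that span, against 29.2% of all 2832 regions gained there. The sites printed above were searched over whole regions, which were not counted for all regions. Over their whole length the gained ICAM1 regions held 1 and 3 consensus sites, that of MMP9 2 and that of TNFAIP2 0. These counts describe letters in the reference and were not tested.

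**Figure D1:**
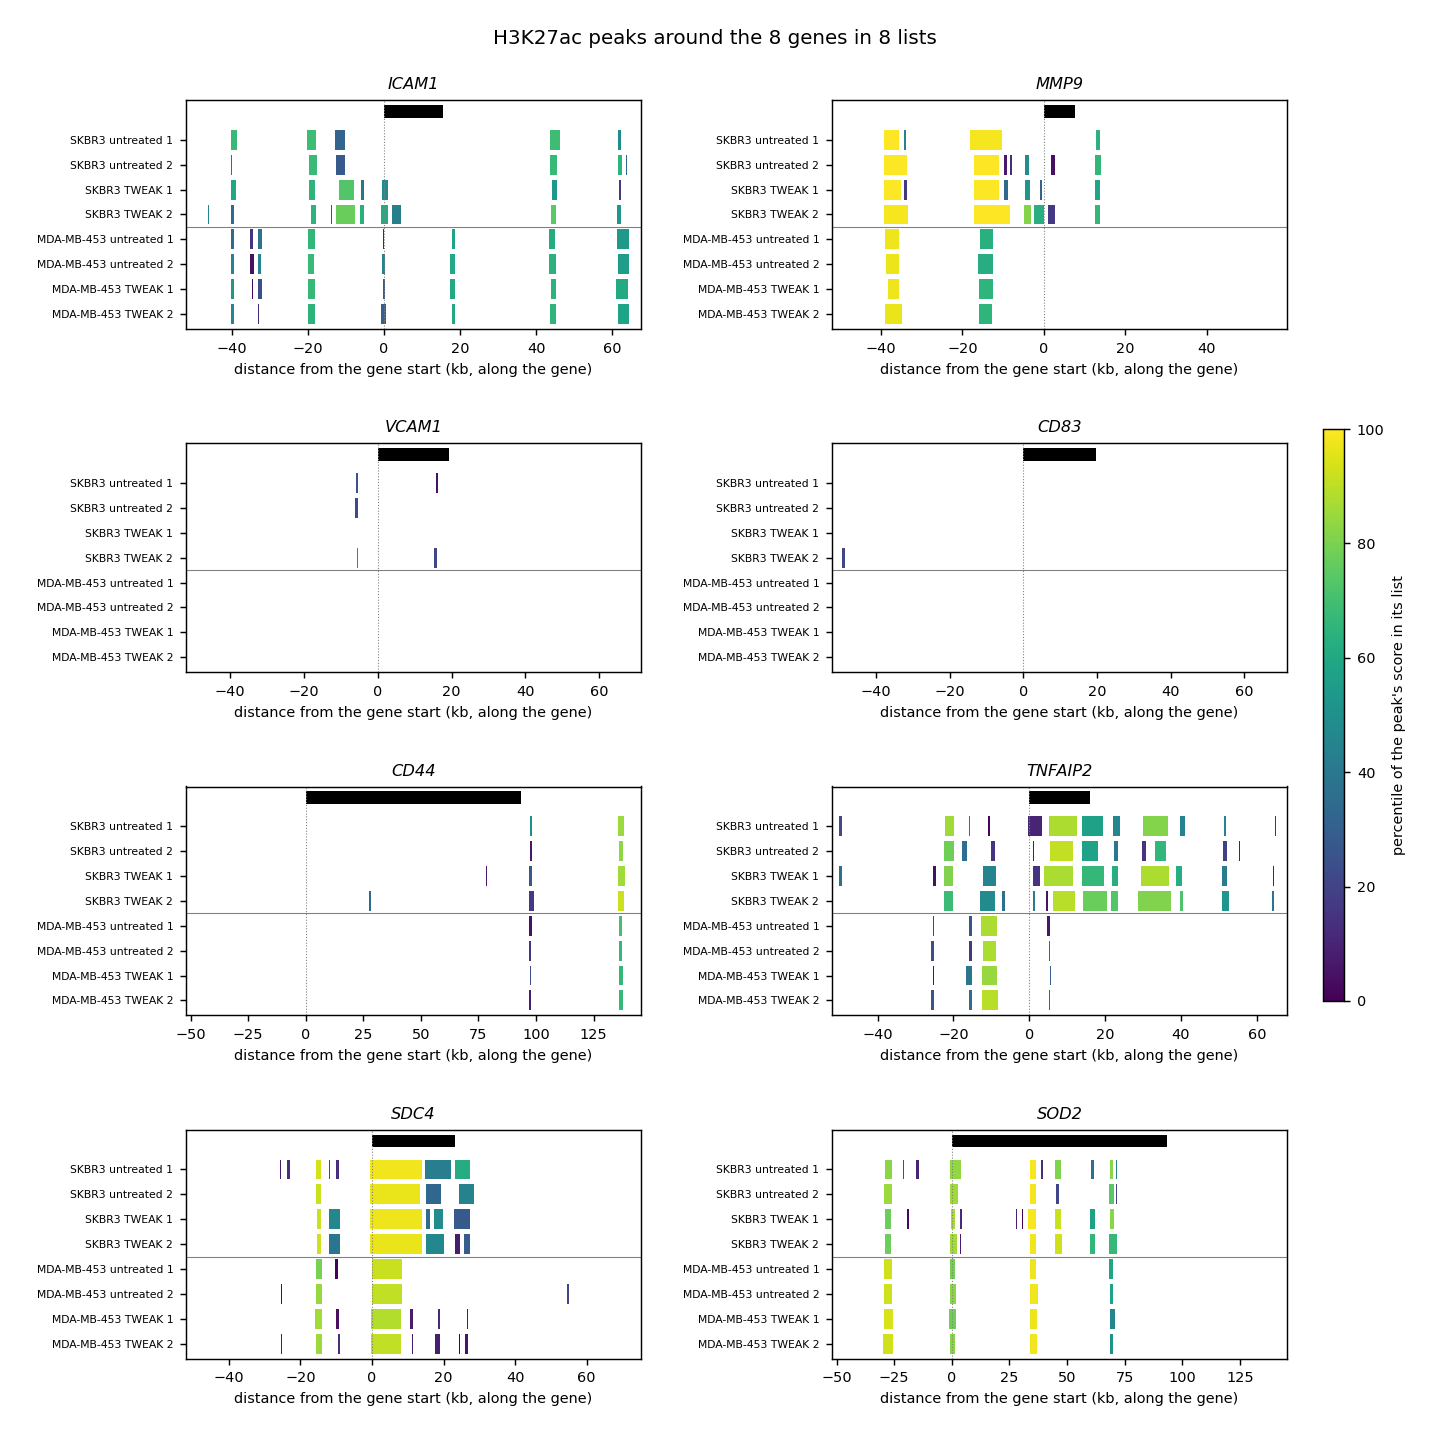
Each panel shows 1 gene (black bar) and each row 1 of the 8 lists; coloured blocks are H3K27ac peaks by distance from the gene start in kb, and colour is the percentile of the peak's score in its list. TNFAIP2 and SDC4 were broadly covered in SKBR3 (30.4 and 26.7 kb on average), CD83 had a single peak in 1 list, and peaks close to the ICAM1 and MMP9 starts appeared in the SKBR3 TWEAK lists.

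ICAM1 (ENSG00000090339.9, chr19:10271093-10286615, plus strand), the cell surface ligand of leukocyte integrins, gained peaks near its start with TWEAK in SKBR3, where both untreated lists lacked peaks at the start and both TWEAK lists had one. The region at its start (chr19:10270321-10272210, from upstream of the gene into its first part) was absent from both untreated SKBR3 lists and stood at percentiles 47.4 and 61.2 in the TWEAK lists. In MDA-MB-453 it was present throughout, at percentiles 8.70 and 44.7 without TWEAK and 28.0 and 29.9 with it, so that the groups overlapped. A second region 5.7 kb upstream (chr19:10264839-10265989), which holds the first site above, was also absent from the untreated SKBR3 lists, stood at percentiles 38.7 and 63.6 with TWEAK, and was in no MDA-MB-453 list.

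A further region, 10.3 kb upstream between MRPL4 and ICAM1 (chr19:10258140-10263408), was chosen for description after its values were seen. It stood at percentiles 31.9 and 28.0 in untreated SKBR3 and at 72.7 and 77.1 after TWEAK. The groups did not overlap, and no MDA-MB-453 list held it. Peaks covered 2827 and 2264 bp of it without TWEAK and 3974 and 4840 bp with it, and the authors' fold enrichment over background was 3.12 and 3.32 against 6.51 and 7.08. The rise of 44.95 ± 8.86 percentile points (SE) had an unadjusted p of 0.000907 but an adjusted p of 0.174 in limma over all 30481 regions held by the 4 SKBR3 lists, and was not called. In that fit 0 regions were called (0%), and 2538 had an unadjusted p under 0.05 (8.33%). The share of all regions whose groups did not overlap was not counted, here or for the regions below.

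Over the whole ICAM1 window, peaks covered 10.2 and 7.76 kb in untreated SKBR3, 10.97 and 15.5 kb with TWEAK, 10.3 and 11.02 kb in untreated MDA-MB-453 and 10.7 and 9.56 kb with TWEAK. The ICAM1 difference in SKBR3 of 0.50 ± 0.20 on the log2(kb + 1) scale was not called (limma adjusted p = 0.361). In windows of 10 kb around the gene the untreated SKBR3 lists had no peak, the TWEAK lists had 4.56 and 7.72 kb, and the MDA-MB-453 lists had 1.27 and 1.77 kb without TWEAK and 2.04 kb in both TWEAK lists. The groups did not overlap in either line, and the share of all 10 kb windows where this held was not counted. The 0 in untreated SKBR3 depends on the window edge, since peaks of the region described above ended 10.1 and 10.3 kb from the start, and that region gave 2.16 and 2.32 kb of the TWEAK lengths. The SKBR3 difference, 2.80 ± 0.24 on the log2 scale, was called (limma adjusted p = 0.0187), where 0.982% of all 10 kb windows were called. The spread in this fit is shared by both lines. Without either untreated SKBR3 list, which leaves a lone untreated list assumed to vary like the others, adjusted p was 0.0562 or 0.0619, and without either TWEAK list 0.00755 or 0.00173.

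By the mean percentile of the 4 lists of a line, the strongest region of the ICAM1 window in both lines belonged to another gene, although in the SKBR3 TWEAK lists the region 10.3 kb upstream stood higher. It lay at the start of MRPL4, a mitochondrial ribosomal protein gene, 18.9 kb upstream (chr19:10250829-10253549), between percentiles 64.6 and 69.1 in all 8 lists. At the start of ICAM5, a neuronal relative of ICAM1, 18.0 kb downstream (chr19:10288388-10289710), all 4 MDA-MB-453 lists held a region between percentiles 57.5 and 59.9 and no SKBR3 list did. A weaker region in all MDA-MB-453 lists alone lay 32.6 kb upstream (chr19:10237918-10239020), at percentiles 37.9 and 45.5 without TWEAK and 24.2 and 11.3 with it. That fall of 23.9 points was not called (limma adjusted p = 0.514).

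VCAM1 (ENSG00000162692.12, chr1:100719742-100739045, plus strand), the endothelial ligand of leukocyte integrins, had almost no H3K27ac in either line. A region 5.7 kb upstream (chr1:100713702-100714451) stood at percentiles 25.1 and 22.2 in untreated SKBR3 and 49.7 in TWEAK replicate 2, and one within the gene at 15.8 kb (chr1:100734939-100736084) at 4.32 in untreated replicate 1 and 21.0 in TWEAK replicate 2. SKBR3 TWEAK replicate 1 and all MDA-MB-453 lists had no peak in the window, and no list had one at the start, whose consensus NF-κB match is printed above. Length covered was 1.35, 0.64, 0 and 1.32 kb in the SKBR3 lists, and neither TWEAK in SKBR3 (limma adjusted p = 0.813) nor the difference between the lines (0.0653) was called. The difference between the lines was called with a pseudocount of 0.1 kb (adjusted p = 0.0485), with lists of equal size (0.0106), in windows of 100 kb (0.00791), with empty windows left out (0.0266), and without TWEAK replicate 1 (0.00404) or 2 (0.044) of SKBR3.

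CD44 (ENSG00000026508.21, chr11:35138882-35232402, plus strand), the receptor for hyaluronan, had no peak within 1 kb of its start in any list, and its window was covered mainly by a region 137 kb downstream of the start, within an intron of the neighbouring glutamate transporter gene SLC1A2 (chr11:35274397-35277455). This region stood at percentiles 85.1 and 82.9 in untreated SKBR3, 86.2 and 92.0 with TWEAK, and between 66.5 and 70.7 in MDA-MB-453. It ranked 18.9 ± 2.3 points higher in SKBR3 (limma adjusted p = 0.000151). The only other region in all 8 lists lay just past the end of CD44 (chr11:35235686-35237923) and was weak, between percentiles 4.59 and 49.8. Length covered was 3.64 and 2.50 kb in untreated SKBR3 and 4.84 and 5.73 kb with TWEAK, without overlap. The difference of 0.64 ± 0.19 log2 had an unadjusted p of 0.0187 and was not called (limma adjusted p = 0.234).

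SDC4 (ENSG00000124145.6, chr20:45325288-45348424, minus strand), a heparan sulphate proteoglycan of focal adhesions, carried one of the strongest and widest regions of the set, from its start over much of the gene (chr20:45334472-45348997). It stood between percentiles 96.7 and 97.7 in SKBR3 and 88.6 and 91.6 in MDA-MB-453, and covered between 13896 and 14484 bp against 8411 to 9344 bp. Neither measure separated TWEAK from untreated lists in SKBR3, and in MDA-MB-453 only the width did, at 8411 and 8459 bp without TWEAK against 9344 and 8780 bp with it. The TWEAK widths include a separate weak peak of each list, 10.6 to 11.4 and 11.2 to 11.5 kb from the start, at percentiles 8.20 and 6.92. The peak at the start itself ended 8.44 and 8.465 kb from it without TWEAK and 8.14 and 8.11 kb with it, and began slightly upstream with TWEAK. Rank and width of the region were both higher in SKBR3 than in MDA-MB-453, by 6.87 ± 0.71 percentile points (limma adjusted p = 6.32e-05) and 0.71 ± 0.05 log2 (3.11e-05).

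The far side of SDC4 differed between treatments in MDA-MB-453. A region inside the gene, 18.5 kb from its start (chr20:45326360-45333532) was in neither untreated MDA-MB-453 list and was weak in both TWEAK lists, at percentiles 11.1 and 8.43. The next region, 25.8 kb from the start and mostly past the end of the gene (chr20:45319853-45325403), was likewise absent without TWEAK and at percentiles 8.20 and 5.42 with it. In SKBR3 the first stood at percentiles 42.0 and 32.7 without TWEAK and 48.1 and 46.8 with it. The second stood at 61.4 and 44.7 without TWEAK and at 28.0 and 29.3 with it, the opposite direction. The SKBR3 fall of 24.4 ± 10.6 points at the second was not called (limma adjusted p = 0.599). Over the SDC4 window MDA-MB-453 lists covered 10.9 and 10.8 kb without TWEAK and 12.6 and 13.8 kb with it, a difference of 0.26 ± 0.11 log2 that was not called (limma adjusted p = 1).

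**Figure D2:**
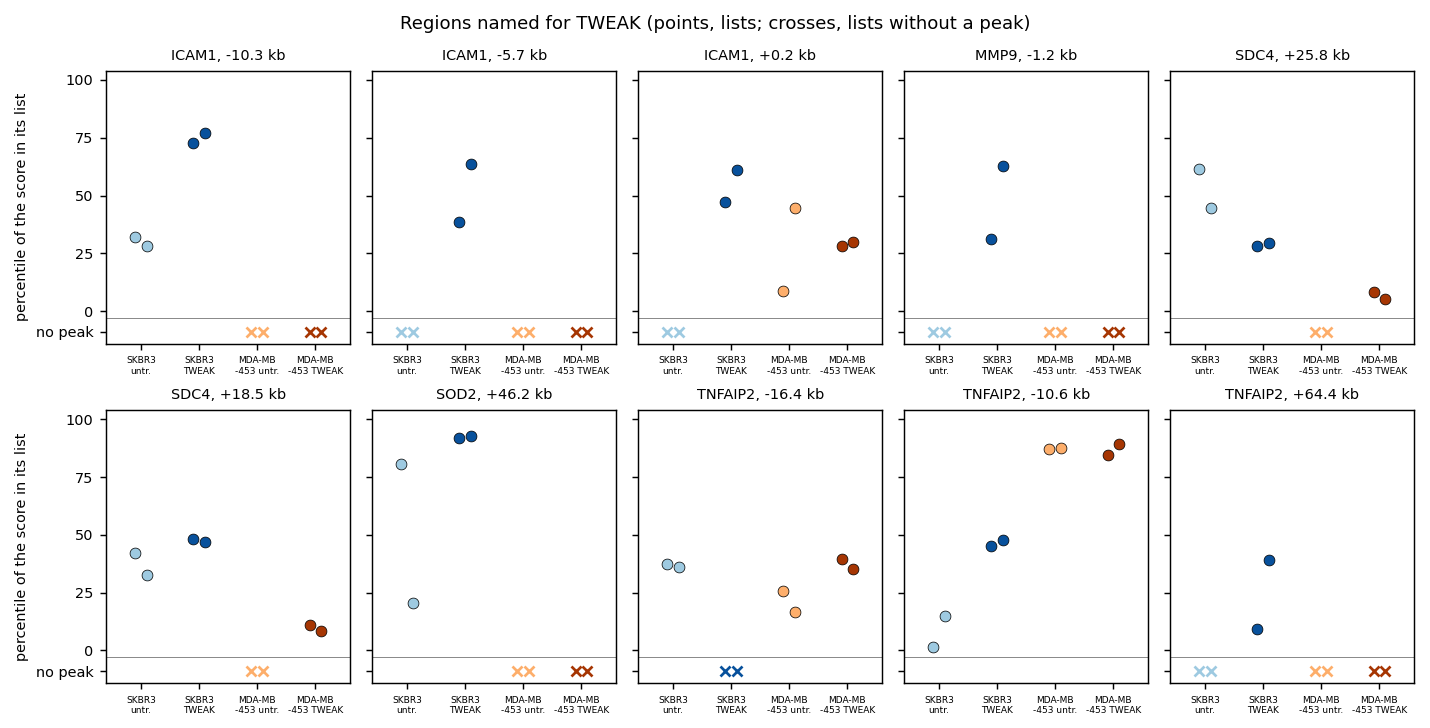
Percentile of the score in each list (y axis) for 10 regions named for TWEAK, by group (x axis); points are lists, crosses mark lists without a peak, and titles give the gene and the distance of the region from its start. At the ICAM1 region 10.3 kb upstream the SKBR3 TWEAK lists stood at 72.7 and 77.1 and the untreated lists at 31.9 and 28.0.

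MMP9 (ENSG00000100985.7, chr20:46008908-46016561, plus strand), the matrix metalloproteinase gelatinase B, had a peak region at its start in SKBR3 only with TWEAK. The region (chr20:46006518-46008853), which ends just before the gene and holds the site 0.6 kb upstream printed above, was absent from both untreated SKBR3 lists and from all MDA-MB-453 lists, and stood at percentiles 31.1 and 62.6 in the SKBR3 TWEAK lists. Its width differed between those lists, at 571 bp in replicate 1 and 2336 bp in replicate 2. A region 4.0 kb upstream (chr20:46004062-46005686) was at percentiles 52.6 and 81.4 with TWEAK, and also at 48.8 in untreated replicate 2, so that it did not count as gained.

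Further upstream, acetylation was strong and differed between the lines. The region 13.2 kb upstream (chr20:45990866-46000477), outside protein-coding genes, stood at percentiles 98.5 and 99.7 in untreated SKBR3, 99.4 and 99.6 with TWEAK and between 62.1 and 64.9 in MDA-MB-453. This was 35.5 ± 1.5 points higher in SKBR3 (limma adjusted p = 4.45e-06). By the mean of 4 lists the strongest region of the window in both lines was at the start of ZNF335, a zinc finger gene 36.4 kb upstream (chr20:45969552-45975441), between percentiles 96.6 and 99.7. In SKBR3 the means were close, at 99.36 against 99.29 for the region 13.2 kb upstream, which stood higher in 2 of the 4 lists. Length covered in the MMP9 window was 12.9 and 16.4 kb in untreated SKBR3, 14.7 and 21.3 kb with TWEAK and between 6.06 and 7.54 kb in MDA-MB-453. The TWEAK difference in SKBR3, 0.27 ± 0.21 log2, was not called (limma adjusted p = 0.663).

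CD83 (ENSG00000112149.10, chr6:14117256-14136918, plus strand), a surface marker of mature dendritic cells, was the emptiest window. Its one region lay 48.9 kb upstream (chr6:14067855-14068824), in SKBR3 TWEAK replicate 2 alone, at percentile 21.0. Neither RefSeq start of CD83 had a peak within 1 kb in any list, including the one whose promoter is printed above.

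TNFAIP2 (ENSG00000185215.11, chr14:103121476-103137439, plus strand), a TNF-induced gene of the exocyst-related family, had the largest difference between the lines among the 8. Peaks covered 31.5 and 21.6 kb in untreated SKBR3, 34.9 and 33.7 kb with TWEAK, 6.08 and 5.32 kb in untreated MDA-MB-453 and 6.11 and 6.08 kb with TWEAK. The SKBR3 mean was 30.4 ± 6.0 kb (SD, n = 4) and the MDA-MB-453 mean 5.90 ± 0.39 kb (SD, n = 4). Of the 16 regions, 7 occurred in every SKBR3 list but nowhere in MDA-MB-453, among them the region at the start (chr14:103121263-103124860), at percentiles 10.0 and 8.78 without TWEAK and 14.1 and 41.0 with it. Only 3 lists had a peak within 1 kb of the GENCODE start, since that of untreated replicate 2 lay 1.02 to 1.25 kb downstream. The RefSeq start had one within 1 kb in 4 lists.

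By the mean of 4 lists, the 2 lines had their strongest region on different sides of the TNFAIP2 start. In SKBR3 it was in the gene body, 8.3 kb downstream (chr14:103125418-103134161), between percentiles 87.3 and 90.8 against 5.90 to 34.3 in MDA-MB-453. In MDA-MB-453 it was 10.6 kb upstream (chr14:103108579-103113200), between percentiles 84.5 and 89.4. SKBR3 was 62.9 ± 5.9 points higher at the first (limma adjusted p = 3.72e-05) and 59.8 points lower at the second (SE 3.93, limma adjusted p = 7.4e-06).

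The upstream region also separated the SKBR3 groups. It was barely listed in untreated SKBR3, at percentiles 1.57 and 15.0 over 570 and 919 bp, and stood at 45.2 and 47.6 over 3459 and 3842 bp with TWEAK. The fit of the 4 SKBR3 lists did not call its rank (38.1 ± 11.2 points, limma adjusted p = 0.355) or its width (2.33 ± 0.32 log2, 0.502). A fit over regions held by all 8 lists, added after the data were seen, did call both (limma adjusted p = 0.0449 for rank and 0.0342 for width), where 0.333% of regions were called by rank and 0.203% by width. Both calls were lost without any one MDA-MB-453 list (adjusted p up to 0.199 for rank and 0.148 for width) or without SKBR3 TWEAK replicate 2 (0.0938 and 0.0685), the width call was lost with the replicate block (0.0802), and the rank call when peaks were ranked by fold enrichment (0.0507). With q under 1e-05 or lists of equal size the region was not tested, since it was no longer held by all 8 lists. The SKBR3 change against that in MDA-MB-453 was not called in the main fit of regions held by all 8 lists (38.4 ± 7.9 points, limma adjusted p = 0.427).

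Downstream of the TNFAIP2 start, SKBR3 lists held a run of regions found in no MDA-MB-453 list. The strongest of them, 33.0 kb downstream (chr14:103150112-103158910), stood at percentiles 81.5 and 65.9 without TWEAK and 87.7 and 81.1 with it. Of the others, those 22.8 kb (chr14:103143131-103145329) and 40.0 kb downstream (chr14:103160286-103162662) are named because their groups were seen not to overlap. They stood at 45.7 and 39.6 against 62.4 and 72.7, and at 44.5 and 40.4 against 62.1 and 72.0, and neither was called (limma adjusted p = 0.493 and 0.498).

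Of the remaining TNFAIP2 regions, one was gained and one was lost in SKBR3. The gained one, 64.4 kb downstream (chr14:103185606-103186068), was at percentiles 9.13 and 39.1 with TWEAK. A peak of untreated SKBR3 replicate 1 at percentile 13.3 lay just past its end (chr14:103186147-103186645). The gain therefore rests on the rule that merged peaks share at least 1 bp. The lost one, 16.4 kb upstream in an intron of EXOC3L4 (chr14:103103779-103106467), was at percentiles 37.5 and 35.9 in untreated SKBR3 and in neither TWEAK list. In MDA-MB-453 it stood at 25.9 and 16.5 without TWEAK and 39.4 and 35.1 with it. Its untreated SKBR3 peaks, of 261 and 1239 bp, did not overlap each other and were joined only by a peak of MDA-MB-453 TWEAK replicate 1. Without that list 0 of 66 regions were lost in SKBR3, so no shared peak was lost. Over the window, the TWEAK difference in SKBR3 was 0.38 ± 0.18 log2 and was not called (limma adjusted p = 0.446).

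SOD2 (ENSG00000291237.1, chr6:159669069-159762529, minus strand), the mitochondrial manganese superoxide dismutase that removes superoxide, had a peak at each of its GENCODE and RefSeq starts in all 8 lists. The GENCODE start lies next to that of ACAT2, where the region (chr6:159758231-159763544) stood between percentiles 83.3 and 86.7 in SKBR3 and 78.4 and 82.7 in MDA-MB-453. RefSeq also gives a start at 159693241 on chromosome 6, in the region 69.9 kb downstream (chr6:159690893-159694305), at percentiles 82.6 and 74.2 in untreated SKBR3, 82.1 and 67.1 with TWEAK, 58.7 and 57.6 in untreated MDA-MB-453 and 45.9 and 50.1 with TWEAK. Both regions ranked higher in SKBR3 than in MDA-MB-453, by 4.89 ± 1.70 points (limma adjusted p = 0.0322) and 23.5 ± 4.1 points (0.00112). The strongest region of the window in both lines, between percentiles 97.1 and 98.7, was shared with the start of WTAP, a subunit of the RNA methylation complex (chr6:159725203-159729294).

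Not all of the SOD2 window was stronger in SKBR3. A region upstream of the gene at the starts of TCP1, a chaperonin subunit gene, and MRPL18 (chr6:159787926-159792399) stood at percentiles 82.6 and 84.8 in untreated SKBR3, 77.4 and 77.5 with TWEAK, and between 92.5 and 94.0 in MDA-MB-453. It ranked 12.4 points lower in SKBR3 (SE 1.12, limma adjusted p = 3.21e-05). Length covered in the SOD2 window was 18.2 and 13.3 kb in untreated SKBR3, 17.2 and 17.4 kb with TWEAK, 10.0 and 11.2 kb in untreated MDA-MB-453 and 11.6 and 11.1 kb with TWEAK, and neither TWEAK difference was called (limma adjusted p = 0.767 and 1).

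An intronic region of SOD2, 46.2 kb downstream of the GENCODE start (chr6:159714922-159717768), was chosen for description after its values were seen. It stood at percentiles 80.5 and 20.6 in untreated SKBR3 and 91.8 and 92.9 with TWEAK, and no MDA-MB-453 list held it. The groups did not overlap, but the untreated lists lay far apart. The authors' fold enrichment was 6.14 and 2.96 without TWEAK and 11.98 and 11.7 with it. The difference of 41.8 ± 16.0 points was not called (limma adjusted p = 0.523). The size rests on the untreated lists: without untreated replicate 2 it was 11.8 points (adjusted p = 0.0602), and without untreated replicate 1 it was 71.8 points (8.82e-05), in fits where the lone untreated list is assumed to vary like the TWEAK lists and where the second called 516 of 32830 regions.

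**Figure D3:**
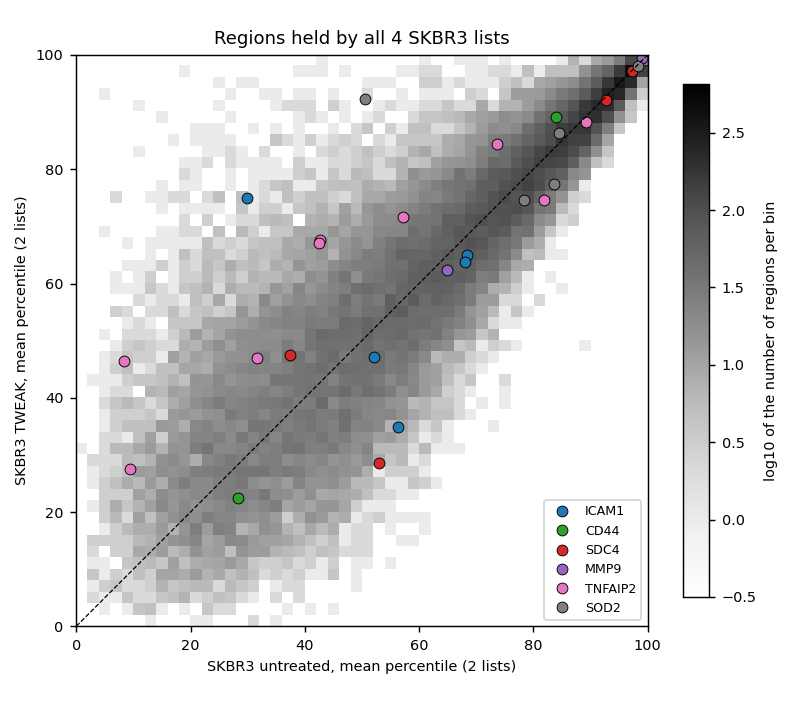
Mean percentile of 2 untreated lists (x axis) and 2 TWEAK lists (y axis) for regions held by all 4 SKBR3 lists; grey squares count all 30481 regions on a log10 scale, coloured points are the 28 regions around 6 of the 8 genes, and the dashed line marks equality. The ICAM1, SOD2 and TNFAIP2 regions described in the text lie above the line, 44.95, 41.8 and 38.1 points from it.

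Taking the 8 genes as a set, TWEAK calls were few in any measure. In SKBR3, 4 of 65 regions (2 at ICAM1, 1 each at MMP9 and TNFAIP2) were gained, being in both TWEAK lists and neither untreated list, against 3.72% of all 76044 regions. The one at TNFAIP2 ended just short of an untreated peak. The 1 region lost, against 1.11% of all, was that of TNFAIP2 16.4 kb upstream, whose untreated peaks did not overlap each other. Leaving out SKBR3 lists loosens this definition: 7 of 60 were gained without untreated replicate 1 (6.17% of all regions), 10 of 61 without TWEAK replicate 1 (14.0%) and 9 of 61 without TWEAK replicate 2 (7.76%). Lost regions were 8 of 63 when untreated replicate 2 was omitted (7.61% of all), 3 of 60 for untreated replicate 1 (4.35%) and 3 of 61 for TWEAK replicate 2 (2.89%). Both regions gained in MDA-MB-453, 2 in all, lay at SDC4 (0.679% of all were gained), and 0 were lost there (0.701% of all). Of 28 regions in all SKBR3 lists, limma called 0 by rank and 0 by width (0% of all regions in each). An unadjusted p under 0.05 was reached by 6 and 4 of them (8.33% and 7.40% of all). Of the 28, 13 ranked higher with TWEAK, with a median change of -0.17 points against 0.15 over all 30481. Of 21 in all MDA-MB-453 lists, limma called 0 by rank (0.00335% of all regions) and 0 by width (0% of all). There 3 and 0 had an unadjusted p under 0.05 (7.75% and 5.97% of all).

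Window length gave the same picture for TWEAK. In SKBR3 limma called 0 of the 8 windows (0.902% of all windows were called), with only CD44 at an unadjusted p under 0.05 (13.9% of all). In MDA-MB-453 it called 0 (0.0551% of all), with 0 at an unadjusted p under 0.05 (2.92% of all). The TWEAK effect differed between the lines at 0 of the 8 (0.376% of all), again with CD44 alone under 0.05 unadjusted (9.41% of all). Both SKBR3 TWEAK lists were longer than both untreated lists at ICAM1, CD44 and TNFAIP2, 3 of 8 against 17.8% of all windows, and the same held in MDA-MB-453 at TNFAIP2 and SDC4, 2 of 8 against 17.2%.

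**Figure D4:**
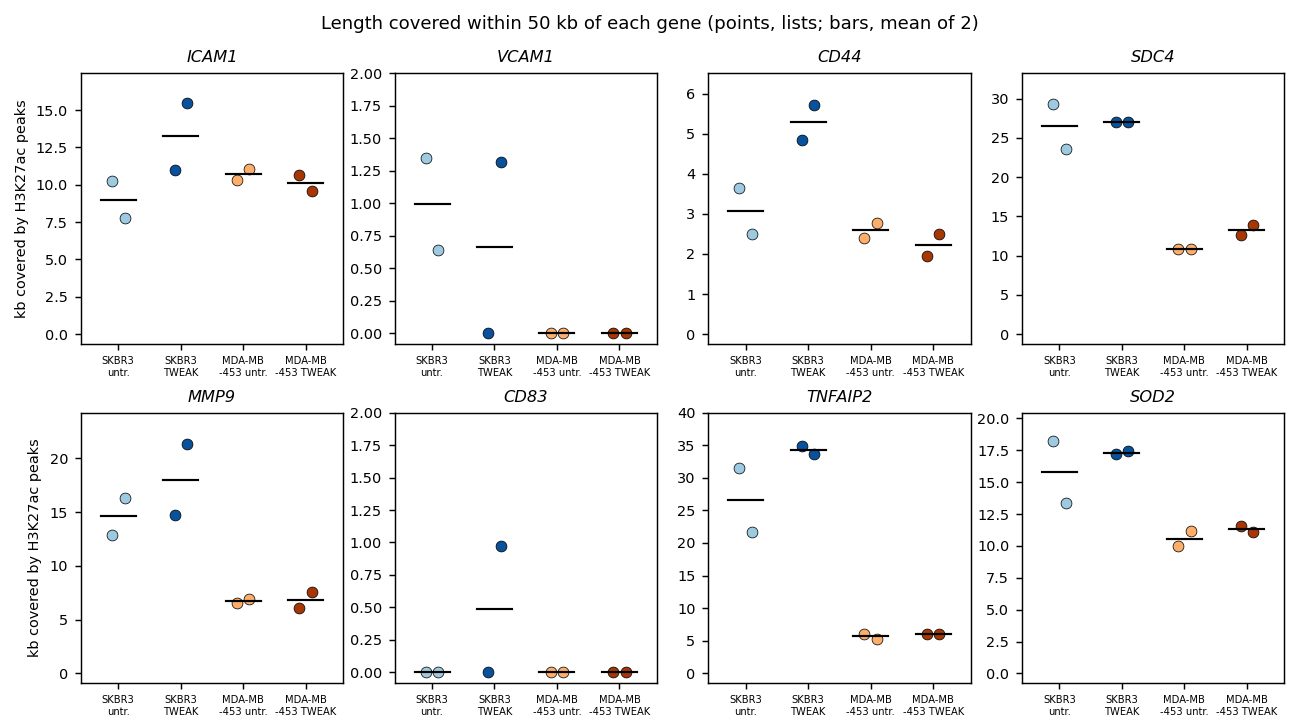
Length covered by H3K27ac peaks (y axis, kb) in the window of each gene, by group (x axis); points are lists and bars the mean of 2. At MMP9, TNFAIP2, SDC4 and SOD2 every SKBR3 list lay above every MDA-MB-453 list, and at ICAM1 the lines overlapped.

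The lines differed at most of these genes, as they did across the genome. Window length was called at 5 of 8, all longer in SKBR3 (66.1% of all windows were called, 42.3% as longer in SKBR3). The log2 differences were 2.17 ± 0.12 at TNFAIP2, 1.14 ± 0.15 at MMP9, 1.09 ± 0.07 at SDC4, 0.57 ± 0.13 at CD44 and 0.55 ± 0.10 at SOD2, with limma adjusted p between 9.24e-05 and 0.0137. ICAM1 (0.05 ± 0.14), VCAM1 and CD83 were not called. SKBR3 lists are longer as a whole, and the median over all windows was 0.14 log2. Scaling each list to its total length moved that median to -0.04 and the called windows from 8442 longer and 4746 shorter in SKBR3 to 5794 and 7692. CD44 (0.23) and SOD2 (0.13) were then no longer called (adjusted p = 0.143 and 0.274), and ICAM1 was called shorter in SKBR3 (-0.36, adjusted p = 0.031).

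Of 16 regions in all 8 lists, 10 were called by rank, 8 higher and 2 lower in SKBR3 (66.9% of all such regions were called), and 9 by width, 6 wider and 3 narrower (60.5% of all). With lists of equal size, the calls over all regions by rank went from 6802 higher and 5037 lower to 4702 and 5819. In presence, 10 of the 65 regions occurred in every SKBR3 list but nowhere in MDA-MB-453 (14.1% of all regions), 7 of them at TNFAIP2, and 2, both near ICAM1, were in all MDA-MB-453 and no SKBR3 lists (10.5% of all).

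Related genes of the same roles were counted beside the 8. Among 43 genes of adhesion, matrix and protease, costimulation, and stress and redox, 16 had a peak at the start in all 8 lists and 21 in none, against 45.9% and 38.9% of all genes. Of the 8, SDC4 and SOD2 had one in all lists and VCAM1, CD83 and CD44 in none. The stress and redox list had 9 of 12 (among them SOD1, the cytosolic dismutase, CAT, catalase, and HMOX1, which degrades haem), adhesion 4 of 13, costimulation 2 of 7, and matrix and protease only PLAU, the urokinase gene, of 11. With TWEAK, limma called the window length of 0 of the 43 in either line (0.902% and 0.0551% of all windows were called), with 7 in SKBR3 and 2 in MDA-MB-453 at an unadjusted p under 0.05 (13.9% and 2.92% of all), the lowest adjusted p in SKBR3 being 0.0675 for HMOX1 (0.69 log2). Between the lines, 22 were called longer and 9 shorter in SKBR3, where 42.3% of all windows were called longer and 66.1% were called in either direction. In the stress and redox list 9 were longer and 1, SOD3, was shorter. In the matrix list 6 were longer, such as PLAU (1.61 ± 0.05), and 2 shorter, such as the matrix glycoprotein gene TNC (-3.63 ± 0.20). The adhesion list had 4 longer, such as CD58 (1.35 ± 0.07), and 3 shorter, such as SELP (-1.78 ± 0.23). The costimulation list had 3 longer, such as CD69 (1.56 ± 0.25), and 3 shorter, such as CD86 (-0.75 ± 0.03).

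For the 2 genes with a start peak in all lists, the gene on another chromosome with the most similar percentiles was found over the 8 lists. For SDC4 it was TES (Pearson r = 0.997, of 8880 genes). For SOD2 it was SYVN1 (r = 0.969, of 8647 genes). These are the highest of many correlations over 8 lists of 2 lines, which share the difference between the lines, and are given as a description.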

How the data were processed

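Per the study's methods and the labels, reads were trimmed with Trimmomatic, mapped to hg38 with Bowtie2, and the authors ran MACS2 on every library after subtraction of input, and blacklisted regions were removed. Versions and calling options are not given in the sources used here. Each of the 8 deposited lists gives peak positions, a score, a fold enrichment ratio, and p- and q-values as −log10. The 9-column layout has no summit. The deposited score, a whole number, was used to rank peaks within their own list, the deposited fold enrichment as an alternative ranking, and the deposited −log10 q-value to filter. The deposited −log10 p-value was not used. The 2 input samples have no list and were not used here. The study's differential test needs reads, so the lists were compared.

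Chromosomes 1 to 22 and X were analysed with GENCODE release 44 in Python 3.11.15. Peaks of the 8 lists that shared at least 1 bp were merged into regions. A region took the highest percentile among its peaks in a list. Window length (log2(kb covered + 1)), region percentile and region width (log2 bp) were fitted with limma 3.58.1 (R 4.3.3, moderated with a trend) over all windows or regions and adjusted by the Benjamini-Hochberg method, and an adjusted p under 0.05 was called. Window fits and line comparisons used all 8 lists in 4 groups. TWEAK fits of regions used the 4 lists of a line. Gained and lost regions were counted without a test, since 2 lists against 2 cannot reach p under 0.05 by permutation. The fits were tested on simulated data with independent noise and large known changes in features of low spread. Those data lack the correlated deviations of same-numbered SKBR3 lists given below, so the simulation cannot speak to them. p-values measure the spread between libraries of the same line and treatment. In fits of all 8 lists that spread is shared by the 4 groups, so p-values for SKBR3 there also rest on the MDA-MB-453 lists.

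The 8 genes, the related lists and the tests were chosen with earlier results of these data known. Named regions were those at each gene's start (within 1 kb), the strongest in each line, those gained or lost and those called with TWEAK. All other regions in the text were named after their values were seen, at ICAM1 (10.3 and 32.6 kb upstream, ICAM5 start), CD44 (past its end), MMP9 (13.2 and 4.0 kb upstream), TNFAIP2 (22.8, 33.0 and 40.0 kb downstream) and SOD2 (46.2 kb downstream, the RefSeq start at 69.9 kb, TCP1 and MRPL18 starts) and VCAM1 (15.8 kb downstream). Motifs were searched on both strands. RefSeq promoters were matched by symbol for VCAM1, CD83, CD44, TNFAIP2, ICAM1, SDC4 and SOD2. Alternatives for all or some of these results were windows of 10 or 100 kb, a pseudocount of 0.1 kb, a minimum mean of 1 kb, scaling to total length, merging across 1 kb, q under 1e-05, equal list size, 50% of a region required inside the window, ranking by fold enrichment, empty windows left out, a spread shared by all 8 lists, adjusted p under 0.1, a replicate block, and leaving out each replicate. One gene of the related lists is counted but not reported here by name.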

Additional observations from a re-analysis of the deposited data

Results flagged for a closer look

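At 2 regions every TWEAK list moved one way in SKBR3 and the other way in MDA-MB-453. This difference between the lines was not tested, because the regions are missing from some lists. The SDC4 region 25.8 kb downstream of the start stood at the 61.4th and 44.7th percentile in untreated SKBR3 and at the 28.0th and 29.3th with TWEAK, and it was absent from both untreated MDA-MB-453 lists and at the 8.20th and 5.42th percentile with TWEAK. The TNFAIP2 region 16.4 kb upstream stood at the 37.5th and 35.9th percentile in untreated SKBR3 and was absent from both TWEAK lists. In MDA-MB-453 it stood at the 25.9th and 16.5th without TWEAK and at the 39.4th and 35.1th with it. Its untreated SKBR3 peaks did not overlap each other and were joined only by a peak of MDA-MB-453 TWEAK replicate 1. A group of 2 lists is too small for a search for single lists that stand apart.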

How the results depend on the processing

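The replicate number is shared between treated and untreated lists, but the labels do not tie it to a culture or day. Deviations of same-numbered lists from their group means correlated at 0.33, 0.30 and 0.46 in SKBR3 (region rank, region width and window length) and between -0.04 and -0.03 in MDA-MB-453, and 2 pairs a line do not establish a pairing. With the replicate block, region ranks called with TWEAK in SKBR3 went from 0 to 1245 of 30481, and around the 8 genes from 0 to 2 (ICAM1 10.3 kb upstream, adjusted p = 0.0063, and SOD2 46.2 kb downstream, 0.0145), while windows called over all genes went from 180 to 45. With windows of 10 kb, TWEAK calls of window length in SKBR3 went from 0 to 1. With the spread shared by 8 lists, TWEAK calls in SKBR3 went from 0 to 1 by rank and from 0 to 1 by width. With q under 1e-05 there were 33 regions around the 8 genes instead of 65, and 36856 instead of 76044 in all. Counts under this filter therefore have a smaller base. Regions wider or narrower between the lines went from 9 to 4, in a fit of 10576 regions instead of 17704. Lost in SKBR3 went from 1 to 0, gained in MDA-MB-453 from 2 to 0, and lost there from 0 to 1. SKBR3-only went from 10 of 65 to 4 of 33, and over all regions from 10747 of 76044 to 4057 of 36856. With lists of equal size, which left 51 regions around the 8 genes, 1 was lost in MDA-MB-453.

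Leaving out 1 list at a time gave TWEAK calls in SKBR3 of 0 to 1 by window length and 0 to 1 by region rank, differences of TWEAK effects of 0 to 1, gained SKBR3 regions of 4 to 10, lost SKBR3 regions of 0 to 8, and lost MDA-MB-453 regions of 0 to 2. Gained and lost counts rise when fewer lists must hold or lack a region. The window call without SKBR3 TWEAK replicate 1 was CD83, whose other lists are all at 0.

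The direction of small window differences turned. For TWEAK in SKBR3, SDC4 (0.04) became -0.0091 with equal list size, -0.16 with q under 1e-05, -0.056 when scaled and -0.031 in 10 kb windows, and lay between -0.11 and 0.19 with 1 list left out (negative without untreated replicate 2). VCAM1 (-0.37) became 0.86 in 100 kb windows and lay between -0.97 and 0.24 with 1 list left out (positive without TWEAK replicate 1). SOD2 (0.14) lay between -0.068 and 0.35 (negative without untreated replicate 2). Between the lines, ICAM1 (0.05) became -0.19 with q under 1e-05, -0.36 when scaled, and -0.064 in 10 kb windows, and lay between -0.063 and 0.17 with 1 list left out (negative without SKBR3 TWEAK replicate 2 or untreated replicate 1). CD83 (0.24) became -0.36 in 100 kb windows. The cause was not tested. No other single value changed sign under the alternatives run. Of counts, 185 stayed within 1.5 times and 22 moved further. Of single values, 279 kept direction and side of the threshold, 15 passed it anew and 9 lost it.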
